A study of Saccharomyces cerevisiae with 6 samples.

Results

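The 10 genes of glycogen metabolism described here encode the enzymes that start, extend, branch and break down glycogen in the budding yeast Saccharomyces cerevisiae, and 3 proteins that guide a phosphatase to them. They were chosen by name (GSY1, GSY2, GLC3, GPH1, GDB1, GAC1, GLG1, GLG2, PIG1 and PIG2), and each has 1 probe set among the 5498 that the array annotation assigns to 5449 genes of this yeast. Total RNA of 3 samples of a pmr1∆ strain and 3 samples of its wild type was measured on Affymetrix arrays. The pmr1∆ strain, NGY051, carries a kan marker in place of PMR1, the Golgi pump for calcium and manganese. The wild type is a MAT a haploid with deletions of ura3, leu2, his3 and met15, a set that the deletion strain shares by its parent. The labels name that parent BY4147 in some fields and BY4741 in another. Both strains grew to exponential phase in YPAD, a rich glucose medium, with 5 mM CaCl2 added, so the question is which transcripts depend on PMR1 when calcium is added. The deletion is represented by 1 strain. No label tells if the 3 replicates came from different cultures, so the p-values rest on a spread that may be technical.

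Glycogen is a branched glucose polymer that yeast stores when growth slows and draws on when sugar runs out. A glycogenin (Glg1 or Glg2) starts each chain by attaching glucose to itself, a glycogen synthase (Gsy1 or Gsy2) extends it from UDP-glucose, and the branching enzyme Glc3 adds branches. Phosphorylase (Gph1) and debranching enzyme (Gdb1) take the polymer apart. Glycogen synthase is inactive when phosphorylated, and the phosphatase Glc7 reactivates it when a targeting subunit such as Gac1 brings the phosphatase to it.

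Levels are the authors' log2 values after RMA, which sets all arrays to a common distribution, so each is relative to the other RNA on its array, and RNA per cell was not measured. A probe set was called when limma's adjusted p, by Benjamini-Hochberg over all 5498 probe sets, lay below 0.05. PMR1 had levels of 2.79, 3.45 and 3.16 in pmr1∆, at the array background, against 11.81, 11.79 and 11.84 in the wild type, which puts it 187-fold or more below the wild type (limma adjusted p = 3.43e-07). Array medians lay between 10.34 and 10.39, and Pearson's r between arrays, taken across probe sets that are no independent replicates, was 0.997 to 0.999 inside a group and 0.988 to 0.990 from one group to the other. Background, taken as the 95th percentile of probe sets for another yeast species, was 4.18 to 4.31, and all 10 glycogen genes lay above it on every array. Of 5 markers of MAT a cells none was at background, while 0 rose and 4 fell in pmr1∆ (80%, against 29.2% of all probe sets). Of 3 markers of the opposite mating type, the alpha-factor gene MF(ALPHA)1 lay below background on all 6 arrays. The other alpha-factor gene, MF(ALPHA)2, averaged 6.35 in pmr1∆ and 6.23 in the wild type, and STE3, the receptor gene of alpha cells, averaged 7.96 in pmr1∆ and 7.40 in the wild type. Both lay above background on every array and rose (limma adjusted p = 0.0408 and 0.000888). With 1 array left out at a time, the MF(ALPHA)2 call held only without wild-type replicate 2 (limma adjusted p = 0.0398). The STE3 call held with each array left out. Of the genes deleted from both strains per the labels, URA3 and MET17 (met15 in the labels) lay below background on all arrays. LEU2 averaged 5.32 in pmr1∆ and 5.55 in the wild type, above background on every array, and fell (limma adjusted p = 0.0349). With 1 array left out, the LEU2 call held only without pmr1∆ replicate 2. HIS3 averaged 11.57 in pmr1∆ and 11.55 in the wild type. HIS3, and to a lesser degree LEU2, thus gave signal although the labels name both as deleted. Whether their probe sets lie outside the deleted parts was not tested.

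Among the glycogen genes 3 fell and 1 rose in pmr1∆, while 6 did not pass the test. GLG1 and GAC1 fell to about 0.66-fold and 0.64-fold of the wild type, PIG2 fell less, and GSY2 rose 1.21-fold. Over all probe sets 29.2% were called, 11.7% as lower and 17.5% as higher, beside 40% of these 10 genes. The 3 values of one group lay wholly above or below those of the other for 5 of the 10 genes, against 46.7% of all probe sets. Of these, 2 lay higher in pmr1∆ (27.4% of all probe sets) and 3 lower (19.3%). The median log2 change of the 10 was 0.0065, and that of all probe sets 0.0095. Their median absolute log2 change was 0.19, against 0.096 over all probe sets. The SEs of the 10 ran from 0.034 to 0.15, against a median SE of 0.048 over all probe sets. Noisier probe sets give larger absolute changes, so the 2 medians cannot be compared as sizes of response.

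**Figure D1:**
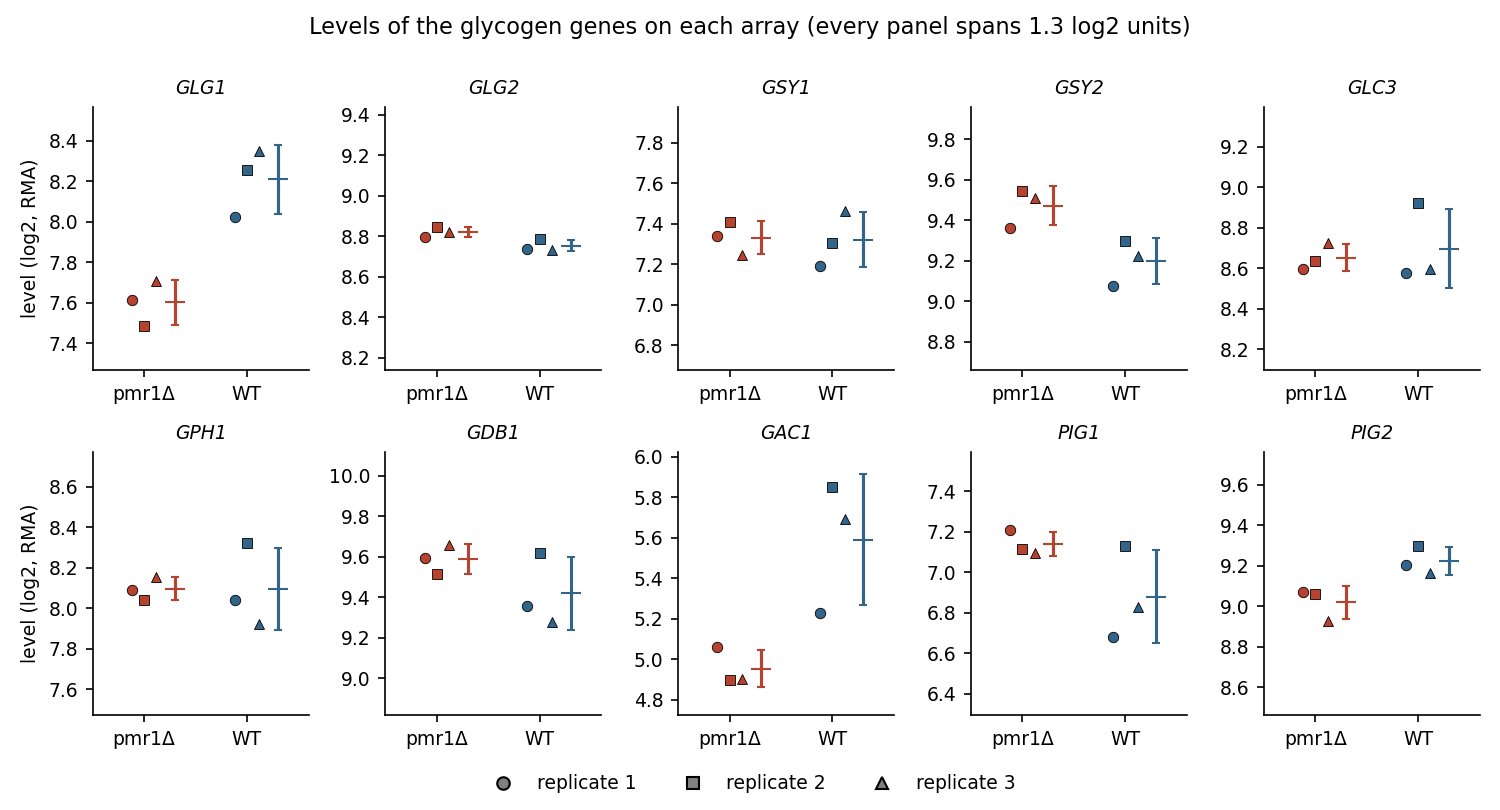
Log2 level of each glycogen gene on each array, pmr1∆ left of wild type (WT), with replicates 1 to 3 as circle, square and triangle and bars for mean ± SD (n = 3). The vertical axes have the same length in log2 units but different positions. GLG1, GAC1 and PIG2 lie lower in every pmr1∆ sample than in every WT sample, while GSY2 and GLG2 lie higher.

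Of the glycogenins, GLG1 fell and GLG2 did not pass the test. GLG1 (YKR058W) had levels of 7.61, 7.48 and 7.71 in pmr1∆, against 8.02, 8.26 and 8.35 in the wild type. Every pmr1∆ sample lay below every wild-type sample, with 0.32 log2 units between the nearest values. Its log2 change was -0.61 (SE 0.094, 95% interval -0.83 to -0.39, limma adjusted p = 0.0040). It stayed past the threshold with each array left out in turn, at adjusted p of 0.00226 to 0.0173. GLG2 (YJL137C), the second glycogenin gene, had levels of 8.80, 8.84 and 8.82 in pmr1∆, against 8.74, 8.78 and 8.73 in the wild type. The groups did not overlap, but they were only 0.012 apart at their nearest values. Its log2 change of 0.069 had a 95% interval of -0.012 to 0.15 (limma adjusted p = 0.172), the narrowest interval among the 10 genes.

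Of the synthase and branching genes, GSY2 rose, while GSY1 and GLC3 did not pass the test. GSY2 (YLR258W), the main glycogen synthase gene of yeast, had levels of 9.36, 9.54 and 9.51 in pmr1∆, against 9.08, 9.30 and 9.22 in the wild type. All pmr1∆ values lay above all wild-type values, and the nearest were 0.062 apart. Its log2 change was 0.27 (SE 0.072, 95% interval 0.10 to 0.44, limma adjusted p = 0.0301). The call ended without pmr1∆ replicates 2 or 3 or wild-type replicates 1 or 3 (adjusted p = 0.0681 to 0.0891), and the change then lay between 0.21 and 0.28. GSY1 (YFR015C), the second synthase gene, had levels of 7.34, 7.41 and 7.25 in pmr1∆, against 7.19, 7.31 and 7.46 in the wild type. The wild-type values enclosed the pmr1∆ values, and the log2 change was 0.011 (95% interval -0.17 to 0.19, limma adjusted p = 0.927). GLC3 (YEL011W), the branching enzyme gene, had levels of 8.60, 8.63 and 8.72 in pmr1∆, against 8.57, 8.92 and 8.60 in the wild type. Wild-type replicate 2 alone stood above the pmr1∆ range. The log2 change of GLC3 was -0.045 (95% interval -0.27 to 0.18, limma adjusted p = 0.761).

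Neither breakdown enzyme passed the test, also before adjustment. GPH1 (YPR160W), the phosphorylase gene, had levels of 8.09, 8.04 and 8.16 in pmr1∆, against 8.04, 8.32 and 7.92 in the wild type. Wild-type replicate 2 was the highest and replicate 3 the lowest of the 6 values, and the log2 change was 0.0017 (95% interval -0.23 to 0.23, limma adjusted p = 0.991). GDB1 (YPR184W), the debranching enzyme gene, had levels of 9.59, 9.51 and 9.66 in pmr1∆, against 9.36, 9.62 and 9.28 in the wild type. Wild-type replicates 1 and 3 lay below all pmr1∆ samples, and replicate 2 lay within their range. Its log2 change was 0.17 (95% interval -0.043 to 0.38, limma adjusted p = 0.2). It was 0.27 and past the threshold without wild-type replicate 2 (limma adjusted p = 0.0144), and 0.099 without wild-type replicate 3 (adjusted p = 0.467).

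**Figure D2:**
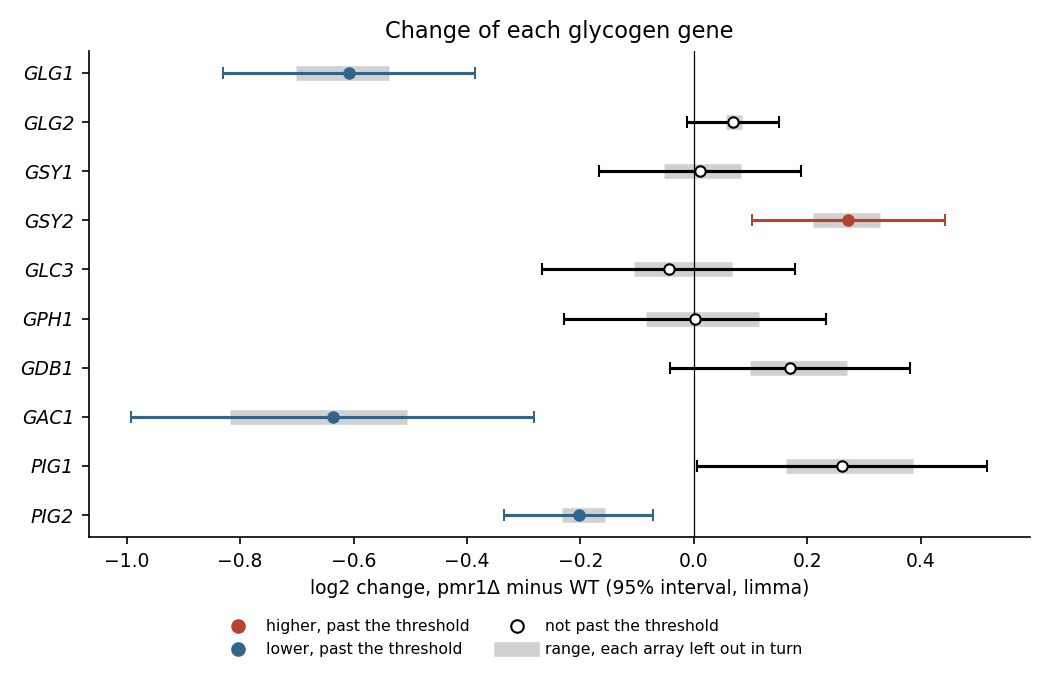
Log2 change of each glycogen gene, pmr1∆ minus wild type, with its 95% interval from limma (horizontal axis, log2 units), filled where the gene passed the threshold. Grey bands give the range with each array left out in turn; only those of GSY1, GLC3 and GPH1 cross 0.

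Of the phosphatase-targeting genes, GAC1 and PIG2 fell and PIG1 did not pass the test. GAC1 (YOR178C), for the subunit that brings Glc7 to glycogen synthase, had levels of 5.06, 4.90 and 4.90 in pmr1∆, against 5.23, 5.85 and 5.69 in the wild type. The groups did not overlap, and wild-type replicate 1 stood closest to the pmr1∆ samples. The log2 change was -0.64 (SE 0.15, 95% interval -0.99 to -0.28, limma adjusted p = 0.0201). Without pmr1∆ replicates 2 or 3 or wild-type replicate 3 the call ended (adjusted p = 0.0615 to 0.0654), with changes of -0.59 to -0.61. GAC1 was the dimmest of the 10 probe sets.

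PIG2 (YIL045W), for a putative targeting subunit of Glc7, had levels of 9.07, 9.06 and 8.93 in pmr1∆, against 9.21, 9.30 and 9.16 in the wild type. The groups were 0.091 apart at their nearest values. The log2 change was -0.20 (SE 0.055, 95% interval -0.33 to -0.072, limma adjusted p = 0.0335). With 1 array left out at a time, the call held when that was wild-type replicate 3 (adjusted p = 0.0454) and ended for each of the other arrays (0.0546 to 0.0876). PIG1 (YLR273C), the paralog of GAC1, had levels of 7.21, 7.12 and 7.10 in pmr1∆, against 6.68, 7.13 and 6.83 in the wild type. Wild-type replicates 1 and 3 lay below all pmr1∆ samples and replicate 2 among them. Its log2 change was 0.26 (95% interval 0.0063 to 0.52, limma adjusted p = 0.113), and it was 0.39 without wild-type replicate 2 (adjusted p = 0.00526) and 0.16 without wild-type replicate 1 (adjusted p = 0.272).

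The balance between the members was compared in 4 paralog pairs, in a design too small for any of them to pass the threshold. On each array the log2 value of one paralog was subtracted from that of the other, and the strains were compared by a two-sided exact permutation test, which cannot go below 0.1 with 3 arrays against 3. GAC1 minus PIG1 was -2.19 ± 0.036 in pmr1∆ and -1.29 ± 0.16 in the wild type (SD, n = 3 each), a difference of -0.90 (exact permutation p = 0.1, 0.133 adjusted over the 4 pairs). GLG2 minus GLG1 was 1.22 ± 0.13 in pmr1∆ and 0.54 ± 0.17 in the wild type, a difference of 0.68 with the same exact p. GSY2 minus GSY1 was 2.14 ± 0.12 in pmr1∆ and 1.88 ± 0.12 in the wild type, a difference of 0.26, again with the same exact p. The arrays of the strains did not overlap for these pairs, and no share was computed over other gene pairs. Among single probe sets 46.7% did not overlap. Each of the 4 pairs holds a gene called above. The subtraction mixes the brightness of 2 probe sets, so it does not say which paralog is more abundant. PIG2 minus GIP2, where GIP2 is the paralog of PIG2, gave 3.13 ± 0.16 in pmr1∆ and 3.32 ± 0.20 in the wild type, and the arrays overlapped (exact permutation p = 0.3, adjusted 0.3).

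**Figure D3:**
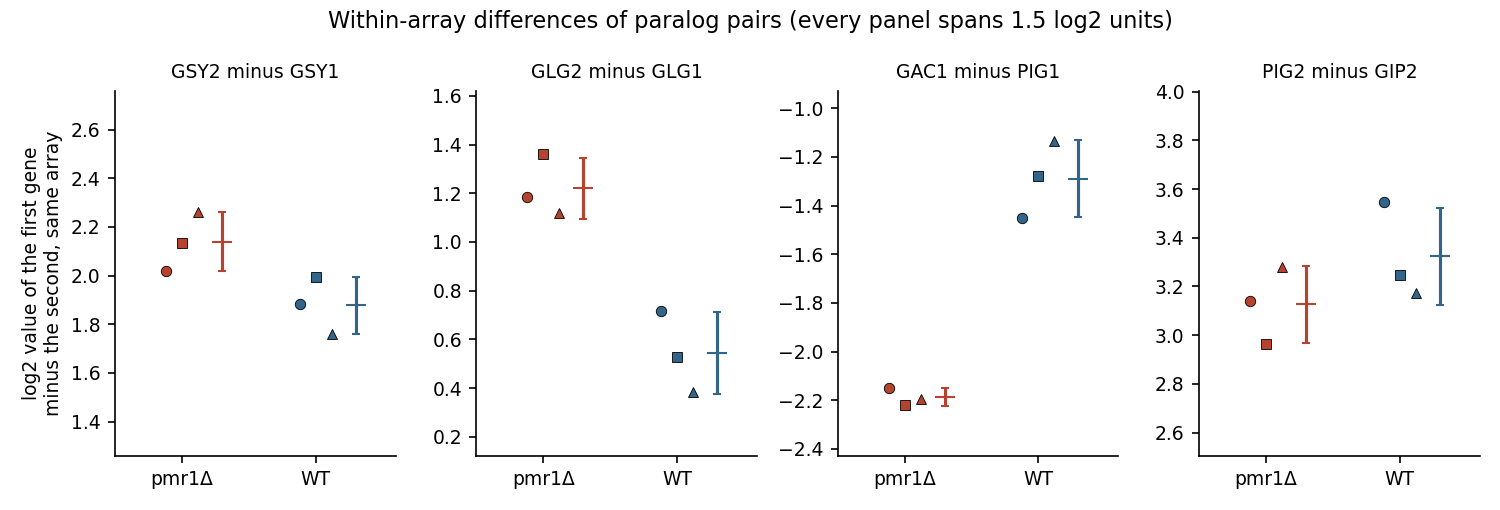
Within-array difference of log2 values between paralogs, for pmr1∆ left of wild type (WT), with replicates 1 to 3 as circle, square and triangle and bars for mean ± SD (n = 3). The GAC1 and PIG1 pair is the most separated, with -2.22 to -2.15 in pmr1∆ and -1.45 to -1.14 in WT, and the PIG2 and GIP2 pair overlaps.

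Wild-type replicate 2 stood apart from the other wild-type arrays for most of these genes. Its value was the highest of the wild type for 8 of the 10 genes, all but GSY1 and GLG1, and for 43.7% of all probe sets. Its median excess over the mean of replicates 1 and 3 was 0.23 for the 10 genes and 0.013 over all probe sets. The excess was 0.30 to 0.39 for GLC3, GPH1, GDB1, GAC1 and PIG1. For GAC1 and GSY2, wild-type replicate 1 lay farther from the wild-type mean (-0.36 and -0.12) than replicate 2 did (0.26 and 0.099). Without this array 3 glycogen genes rose (GSY2, GDB1 and PIG1) and 2 fell (GLG1 and GAC1), where 30.4% of all probe sets were called, 18.9% as higher and 11.4% as lower. GSY2 was then at 0.32 (adjusted p = 0.0209), GLG1 at -0.58 (0.0112), GAC1 at -0.51 (0.0364) and PIG2 at -0.17 (0.0669), by limma with Benjamini-Hochberg adjustment.

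Genes of the general stress response also had their highest mean level among the wild-type arrays on replicate 2. Of 10 targets of the stress factors Msn2 and Msn4 outside the glycogen genes, 4 rose and 4 fell in pmr1∆ (80%, against 29.2% of all probe sets). None was at background. Their mean log2 level per array was 9.58 to 9.60 in pmr1∆, against 9.86 and 9.91 in wild-type replicates 1 and 3 and 10.24 in replicate 2. The median log2 change of the 10 was 0.058, so the lower mean does not describe most of them. The largest changes were those of the small heat shock genes HSP12 (-2.14) and HSP26 (-1.98) and of DDR2 (-1.46). Of the genes of trehalose metabolism, TPS1 rose by 0.34, TPS2 by 0.56 and NTH1 by 0.43 (limma adjusted p at most 0.00821 for each of these 6 genes). TSL1, also of trehalose metabolism, was at -0.099 and did not pass the test (limma adjusted p = 0.487). Of 9 genes of low glucose and the post-diauxic phase, 1 rose and 3 fell (44.4%, against 29.2% of all probe sets). None of the 9 was at background, and their mean level was 6.96 to 7.01 in pmr1∆, against 7.09 to 7.16 in the wild type. The part of stress or growth stage in the glycogen gene changes was not tested.

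**Figure D4:**
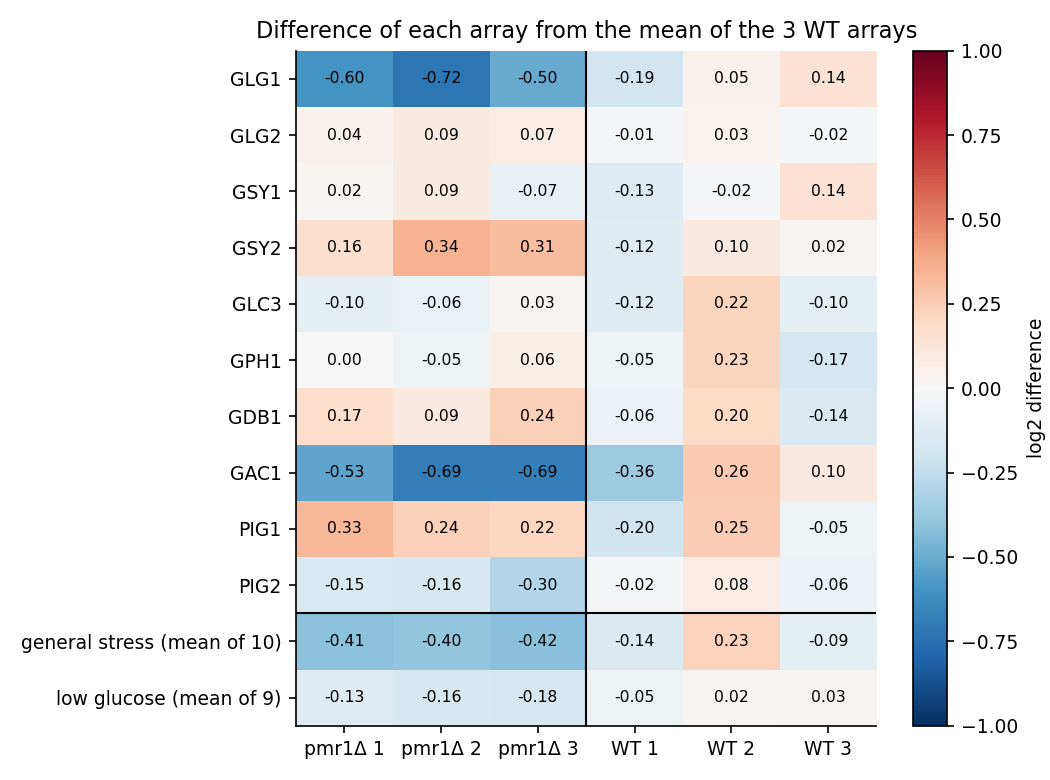
Log2 difference of each array from the mean of the 3 wild-type arrays, for the 10 glycogen genes and for the mean of the general stress and low-glucose genes; columns are the 3 pmr1∆ and 3 wild-type (WT) arrays, and colour runs from blue (below) to red (above). WT replicate 2 is positive in every row but GSY1, while the pmr1∆ columns are negative for GLG1, GAC1, PIG2 and both lower rows. Of the 10 general stress genes averaged, 4 rose and 4 fell.

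Of 6 genes that supply sugar to glycogen, 2 rose and 1 fell (50%, against 29.2% of all probe sets). PGM1, a phosphoglucomutase that turns glucose-6-phosphate into glucose-1-phosphate, had levels of 11.78, 11.81 and 11.75 in pmr1∆, against 11.11, 11.22 and 11.25 in the wild type. The groups were well apart, with a log2 change of 0.59 (SE 0.046, limma adjusted p = 0.000249). UGP1, which makes UDP-glucose, the substrate of glycogen synthase, from it, had levels of 12.98, 13.03 and 13.04 in pmr1∆, against 12.75, 12.77 and 12.76 in the wild type. The rise was 0.25 on the log2 scale (SE 0.034, limma adjusted p = 0.00218). Both calls held with each array left out.

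PGM2, the second phosphoglucomutase gene and the one known to be induced by stress, had levels of 7.87, 7.97 and 7.99 in pmr1∆, against 8.09, 8.55 and 8.12 in the wild type. All pmr1∆ values were lower, but the log2 change of -0.31 (SE 0.12) did not pass the test (limma adjusted p = 0.0911), and it was -0.17 without wild-type replicate 2 (adjusted p = 0.0457). Of the enzymes that phosphorylate glucose, HXK1 fell by 1.13 on the log2 scale (SE 0.15, limma adjusted p = 0.0025). Its levels were 8.91, 8.85 and 8.78 in pmr1∆, against 9.83, 10.36 and 9.72 in the wild type. HXK2, the main hexokinase during growth on glucose, averaged 14.03 ± 0.013 in pmr1∆ and 13.99 ± 0.0057 in the wild type (SD, n = 3 each). GLK1, the glucokinase gene, was at 0.24 (limma adjusted p = 0.199), and at 0.15 to 0.39 with each array left out, passing only without wild-type replicate 2 (0.39, adjusted p = 0.00198).

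None of 7 genes for the phosphatase Glc7 and its other regulators passed the test by limma (0%, against 29.2% of all probe sets). An unadjusted limma p under 0.05 was found for 2 of them, a count that was not taken over all probe sets. Their changes lay between -0.051 for SHP1 and 0.15 for SDS22. GLC7 itself was at 0.027 (95% interval -0.055 to 0.11, limma adjusted p = 0.594). GIP2 had levels of 5.93, 6.10 and 5.65 in pmr1∆, against 5.66, 6.05 and 5.99 in the wild type, and these overlapped. SDS22 and REG1, regulatory partners of Glc7, were at 0.15 and 0.13, with limma adjusted p of 0.0608 and 0.0635. Both passed without wild-type replicate 2 (adjusted p = 0.015 and 0.0394).

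Of 17 measured genes for kinases and cyclins that act on glycogen synthase or on glycogen storage, 3 rose and 2 fell, 29.4% against 29.2% of all probe sets. The falls were those of cyclins of the kinase Pho85. PCL7, whose cyclin acts with Pho85 on the Glc7 regulator Glc8, had levels of 10.51, 10.53 and 10.48 in pmr1∆, against 10.95, 11.04 and 10.93 in the wild type. These groups were apart, with a log2 change of -0.47 (SE 0.042, limma adjusted p = 0.000436). PCL10, for a cyclin that directs Pho85 to glycogen synthase, fell by 0.21 (SE 0.044, limma adjusted p = 0.0136), and its call ended without pmr1∆ replicate 3 (adjusted p = 0.0502). PCL8, the paralog of PCL10, was at -0.090 (limma adjusted p = 0.141) and PHO85 at 0.043 (adjusted p = 0.49).

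The rises were those of protein kinase A genes and of a kinase that opposes it. BCY1, the inhibitory subunit of protein kinase A, rose by 0.20 (SE 0.038, limma adjusted p = 0.00838), and YAK1, a kinase that counters that pathway, by 0.25 (SE 0.049, adjusted p = 0.0107). TPK2, a catalytic subunit, rose by 0.18 (SE 0.049, limma adjusted p = 0.0309), but the call ended without any 1 array other than wild-type replicate 2 (adjusted p = 0.0578 to 0.0944). The catalytic subunit TPK3 was at 0.093 (limma adjusted p = 0.113). SNF1, the kinase of glucose starvation, was at -0.025 (95% interval -0.12 to 0.072), and its subunit gene SNF4 at -0.097 (limma adjusted p = 0.0563).

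Of the other genes of glycogen turnover, SGA1 rose and IGD1 did not pass the test. SGA1, a glucoamylase known for breaking down glycogen during sporulation, had levels of 7.45, 7.35 and 7.51 in pmr1∆, against 7.02, 6.96 and 6.89 in the wild type. All pmr1∆ values were higher, with a log2 change of 0.48 (SE 0.055, limma adjusted p = 0.00118) that held with each array left out. Of 5 meiotic marker genes 0 rose by limma, also without adjustment, and 1 fell (20%, against 29.2% of all probe sets). It was IME1, the master regulator of meiotic entry, which fell by 0.29 (limma adjusted p = 0.00517). The mean level of the 5 was 6.96 to 7.10 in pmr1∆, against 7.01 to 7.18 in the wild type. NDT80, a transcription factor gene of meiosis, was at 0.18 (limma adjusted p = 0.174), and at 0.28 and past the threshold without wild-type replicate 2 (adjusted p = 0.011). IGD1, an inhibitor of the debranching enzyme, had levels of 8.28, 8.24 and 8.12 in pmr1∆, against 8.32, 8.70 and 8.45 in the wild type. Its log2 change was -0.28 (SE 0.097, limma adjusted p = 0.0681), and it was past the threshold without wild-type replicate 1 (adjusted p = 0.0332) and at -0.18 without wild-type replicate 2 (adjusted p = 0.0852).

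**Figure D5:**
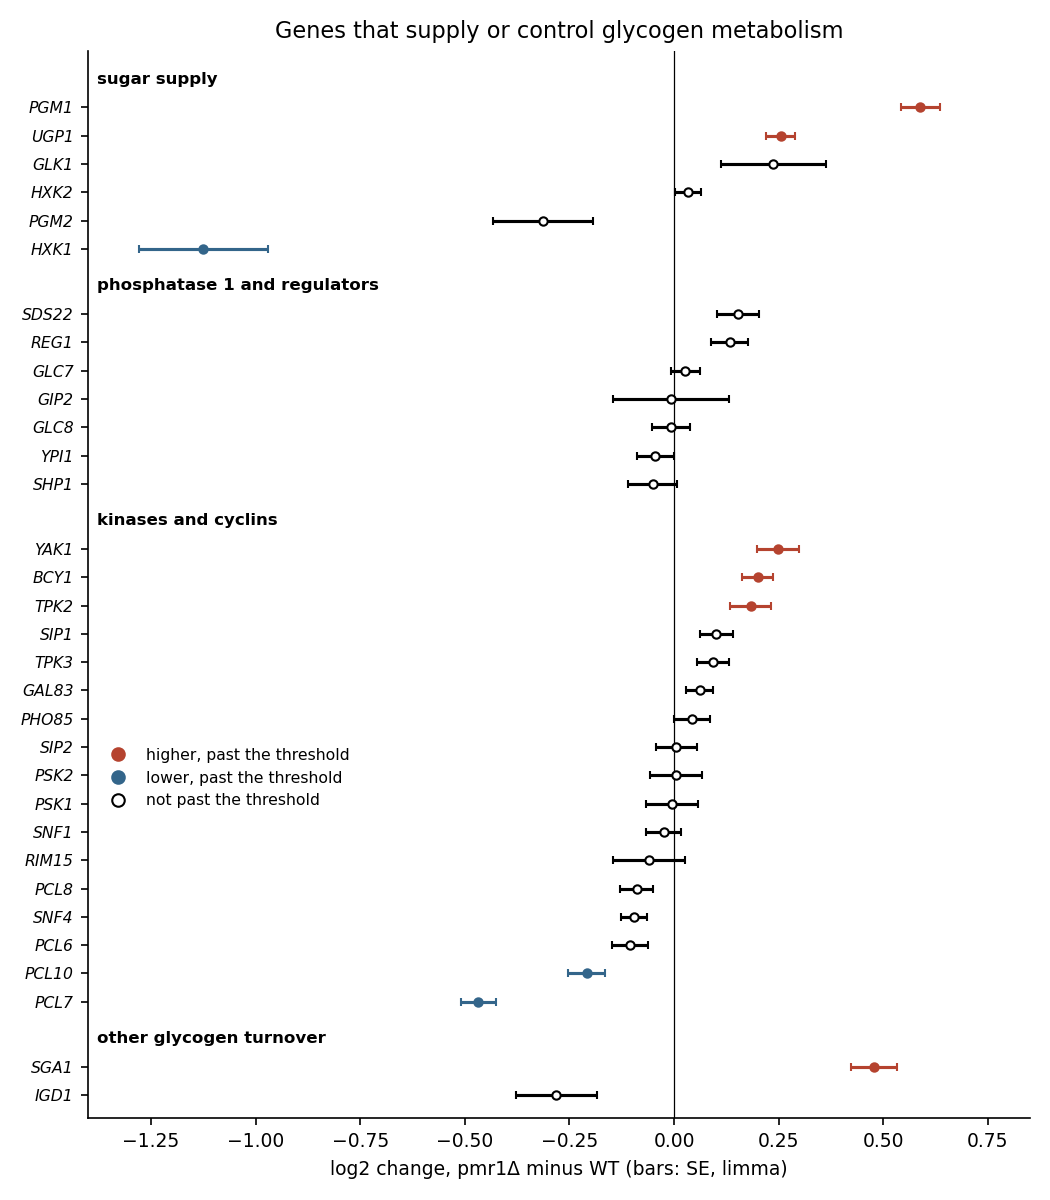
Log2 change ± SE (limma), pmr1∆ minus wild type, of the 32 measured genes that supply sugar to glycogen, act on its enzymes or break it down, grouped by role and filled where the threshold was passed. PGM1 (0.59) and SGA1 (0.48) lie farthest to the right, HXK1 (-1.13) farthest to the left, and all 7 genes of the phosphatase group are open.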

How the data were processed

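RNA of 6 samples was labelled with biotin and hybridised to Affymetrix arrays. The deposited table holds the authors' log2 values of 10928 probe sets. Tools named in the submitters' processing notes are GCOS, RMA and limma, without versions. RMA compresses large folds and those of dim genes. Columns were matched to samples by name. Tested were 5498 probe sets named for S. cerevisiae, with 12 symbols updated from the R64 gene table; 1746 of another yeast species, 3470 unnamed, 213 control probe sets and 1 with several genes were left out. The genome build is not given in sources used here.

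Groups were compared with limma 3.58.1 (lmFit, eBayes) in R 4.3.3, two-sided, with Benjamini-Hochberg adjustment across the tested probe sets. The same code was tested on simulated data. For a gene with several probe sets the one with the highest mean was used. The number of arrays limits the precision, and log2 changes had a median SE of 0.048. Exact permutation tests used scipy 1.17.1.

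The genes, lists and tests were chosen with earlier results of these data known. Named are the 10 glycogen genes, PMR1, pathway genes (with values where they passed the threshold, and some that did not) and up to 3 genes of each marker list with the largest change. URA3, LEU2, HIS3, MET17, TPS1, TPS2, NTH1 and TSL1 fall outside that rule and were picked once their values had been seen. The markers were 5 MAT a, 3 MAT alpha, 5 meiotic, 9 low-glucose and 10 general stress genes. Alternatives were other variance priors, 3 scalings, probe set filters, array weights, a replicate block and leaving out each array.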

Additional observations from a re-analysis of the deposited data

How the results depend on the processing

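Over the 10 glycogen genes and 16 other settings each, 131 of 160 values kept their direction and their side of the threshold, 15 kept the direction but lost the call, 4 gained it and 10 changed sign, all 10 for genes that did not pass the test. GLG1 passed in every setting run. With every probe set on the array tested, 0 glycogen genes rose and 1 fell by limma, and 548 and 325 probe sets did in all. Before adjustment 1 glycogen gene rose and 3 fell there, against 2 and 3 in the main fit. Counts before adjustment were not taken over all probe sets, so these have no share to be read against. That setting adjusts for more tests and also estimates the variance prior from all probe sets. GSY2, GAC1 and PIG2 had limma adjusted p of 0.0961, 0.0612 and 0.114. BCY1, PCL10 and TPK2 also lost their calls there (0.0508, 0.0648 and 0.114). With array weights 3 glycogen genes rose, GDB1 and PIG1 added, and 3 fell. Pathway rises numbered 12 there in place of 6. In all, 1434 probe sets rose and 1087 fell in that setting, against 963 and 642 in the main fit. The weights ran from 0.37 for wild-type replicate 2 to 4.79 for pmr1∆ replicate 1, so that fit leans on the latter. The cause of the added calls was not tested. Pathway falls numbered 5 in place of 3 with an intensity trend and robust priors, quantile scaling, cyclic loess or array weights. Over all probe sets 748, 789, 830 and 1087 fell in these settings, against 642 in the main fit. Quantile scaling moved the GAC1 minus PIG1 difference to -0.76 and the log2 change of GSY1 to -0.012 and of GPH1 to -0.025, and GPH1 was at -0.0040 with median scaling and -0.014 with cyclic loess. With each array left out, 0 to 3 glycogen genes rose (1 to 3 before adjustment) and 1 to 2 fell, against 1 and 3 with all arrays, and 599 to 1041 probe sets rose and 373 to 629 fell, against 963 and 642. GSY1 ranged from -0.052 to 0.083, GLC3 from -0.11 to 0.067 and GPH1 from -0.084 to 0.11. The median of the 10 genes ranged from -0.039 to 0.076. With the replicate number as a block, 1 glycogen gene rose and 3 fell, and 805 and 570 probe sets did in all. Same-numbered samples deviated together no more than others (correlations of -0.14, 0.00032 and 0.081, against -0.14 to 0.15 for unlike numbers). With 3 arrays per group this cannot tell whether a number marks a shared culture or batch. Levels near background, as for GAC1, limit the size of a fall that can be seen.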
